A study of Homo sapiens with 4 samples.

Results

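The E2F genes (E2F1 to E2F8) and the genes of their DP partners (TFDP1 and TFDP2) were read in ES-2 cells after depletion of the YM fusion and MAML2. The 10 genes were chosen by symbol as the members of this transcription factor family, and all 10 were found among the 19626 genes of the deposited tables. ES-2 is an established human ovarian clear cell carcinoma line that carries an endogenous fusion of YAP1 and MAML2 (YM). All cells were transduced on consecutive days, for 8 h each, with pLKO.1 lentivirus. The control cells received a non-targeting shRNA (shCtl, n = 2 biological replicates) and the depleted cells an shRNA against MAML2 (shM2-3, titled shMAML2 in the labels, n = 2). RNA was taken 96 h after the first infection according to the labels, whereas the study's methods give a shorter time. Replicates were cultured independently. The comparison rests on 1 cell line and 1 shRNA, whose target lies in the stretch of MAML2 that the fusion retains, so loss of the fusion and loss of MAML2 cannot be told apart.

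E2F proteins are the transcription factors through which the retinoblastoma pathway controls entry into S phase. E2F1, E2F2 and E2F3 are known as activators that are held by RB1, E2F4 and E2F5 as repressors that work with RBL1 and RBL2 in resting cells, and E2F6, E2F7 and E2F8 as repressors that do not bind the pocket proteins. E2F1 to E2F6 bind DNA as dimers with a DP protein, whereas E2F7 and E2F8 do not need one. Cyclin D with CDK4 or CDK6 phosphorylates the pocket proteins and frees the activators, and the E2F genes are themselves among the genes that E2F proteins control.

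Each library held between 20051083 and 23978660 estimated counts, the reads the authors assigned to genes, which need not be whole numbers. MAML2, the targeted gene, had an RPKM (read counts scaled by transcript length and library size) of 8.44 ± 0.243 (SD, n = 2) in shCtl and, in shM2-3, of 3.05 ± 0.0776, or 36.2% of the control level, from 1436 and 1402 estimated counts against 634 and 553. Among epithelial markers, KRT7, KRT8 and KRT18 were expressed, their RPKM with EPCAM summing to 636 and 637 in shCtl and to 312 and 316 in shM2-3, while EPCAM itself had at most 6 counts. The Müllerian marker PAX8 had an RPKM of at most 0.189 in any library and the clear cell marker NAPSA of at most 0.369, so these markers of the labelled tumor type were near 0. Of 6 fibroblast markers, PDGFRA alone exceeded an RPKM of 1, and the list summed to between 7.95 and 8.01 in shCtl and between 25.1 and 25.7 in shM2-3. Of the 6 leukocyte markers in the tables, CD68 exceeded 1 in shCtl and CD68 and CSF1R in shM2-3, with sums of 57.2 to 57.5 and of 40.6 to 41.9. The sum followed CD68, which fell from a mean RPKM of 57.1 to 38.4. In contrast, CSF1R rose from 2 and 8 estimated counts to 230 and 223, and CD14 from 3 and 4 to 42 and 37. PTPRC and CD3E had at most 3 counts. Endothelial markers summed to between 9.21 and 10.3 in shCtl, and to between 4.95 and 5.49 in shM2-3, where CDH5 was lower (mean RPKM 9.66 against 4.10) and PECAM1 higher (0.0342 against 1.12). The part of these markers in the results below was not tested.

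The E2F genes are known to carry E2F sites in their own promoters, so the windows from 250 bases before to 50 bases after each annotated start were searched on both strands. RefSeq promoter windows (build GRCh38.p14) matched 8 of the 10 genes, with 11 windows in all. No window was available for E2F5 or E2F8, so their promoters were not searched. An E2F site, searched as TTTCCCGC, TTTGGCGC, TTTCGCGC or TTTGCCGC, was found in 4 of the 11 windows, those of E2F1, E2F2, TFDP1 and the upstream start of E2F3. Among all 35116 windows, 3.31% held such a match. The matches are shown here, in capitals, 5′ to 3′ on the strand of the gene, because the same genes are described below by their levels.
E2F1, 33 bases before the start, chr20:33686400-33686429, minus strand: gtggctctttcGCGGCAAAaaggatttggc
E2F1, 20 bases before the start, chr20:33686387-33686416, minus strand: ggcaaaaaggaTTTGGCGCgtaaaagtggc
E2F2, 42 bases before the start, chr1:23531257-23531286, minus strand: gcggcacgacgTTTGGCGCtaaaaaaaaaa
E2F3, 53 bases before the upstream start, chr6:20401815-20401844, plus strand: ttgaaaagccgGCGGGAAAtccgagtttcg
TFDP1, 120 bases before the start, chr13:113584622-113584651, plus strand: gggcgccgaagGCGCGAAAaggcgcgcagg
The 2 stretches printed for E2F1 come from 1 window and overlap, and its matches lie on opposite strands. In E2F3 a cell cycle homology region (CHR, searched as TTTGAA) lay 65 bases before the same start, and 2 of the 3 windows of TFDP2 also held one, against 15.2% of all windows. The TEAD motif GGAATG was found in 1 of the 11 windows, that of E2F4, 192 bases before the start, against 14.0% of all windows. The CCAAT box was found in 4 of the 11 windows, against 34.6% of all windows. These were the windows of E2F1, E2F7, the upstream start of E2F3 and 1 of the 3 starts of TFDP2. The window of E2F6 and that of the downstream start of E2F3 held none of the 4 motifs. A match describes letters in a window and was not tested for binding.

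**Figure D1:**
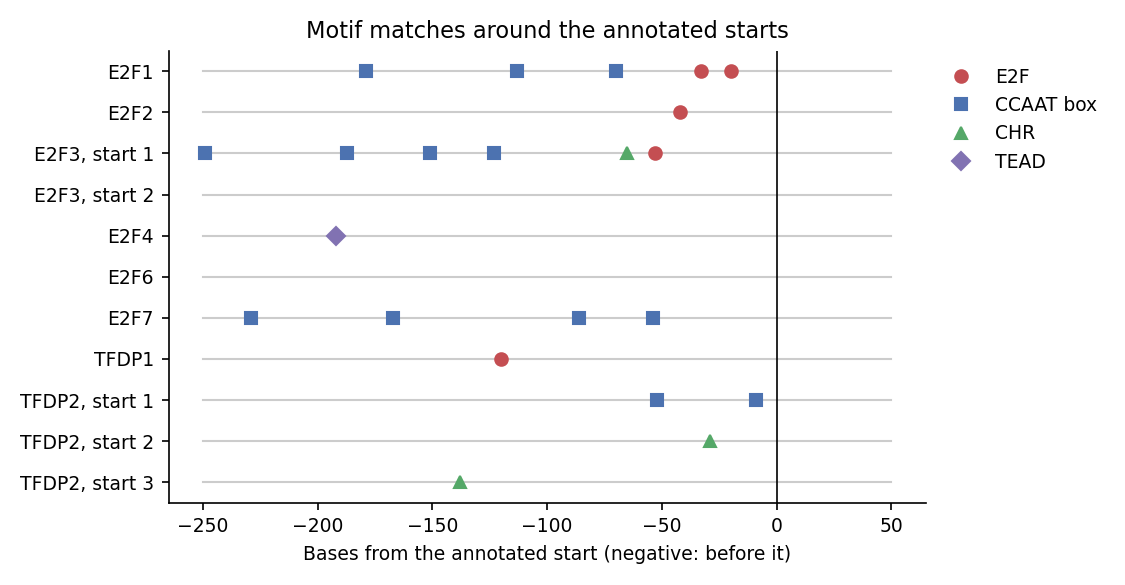
Positions of motif matches, in bases from each annotated start, for the 11 RefSeq windows of 8 genes; each grey line is a window and each symbol a match on either strand. E2F matches lie between 120 and 20 bases before the starts of E2F1, E2F2, E2F3 and TFDP1, and the TEAD match of E2F4 lies 192 bases before its start.

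The levels of the 10 genes spanned a wide range in the control cells. On the RPKM scale, which allows for transcript length, TFDP1 (18.4 ± 0.874, SD, n = 2), E2F4 (17.9 ± 1.26) and E2F5 (17.8 ± 1.54) were highest in shCtl, and their library values overlapped. E2F7 followed at 15.0 ± 0.677, then E2F3 at 5.90 ± 0.194, E2F1 at 3.99 ± 0.259, E2F6 at 3.71 ± 0.00811 and TFDP2 at 3.28 ± 0.106. E2F8 (0.951 ± 0.231) and E2F2 (0.163 ± 0.00191) were lowest. From E2F5 down, the libraries of each gene lay above those of the next. In shM2-3 the order was E2F4, TFDP1, E2F7, E2F3, E2F5, E2F6, E2F1, TFDP2, E2F8 and E2F2, in which E2F4 overlapped with TFDP1, E2F3 with E2F5, and E2F1 with TFDP2. E2F5 thus moved from a level shared with E2F4 to one shared with E2F3.

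**Figure D2:**
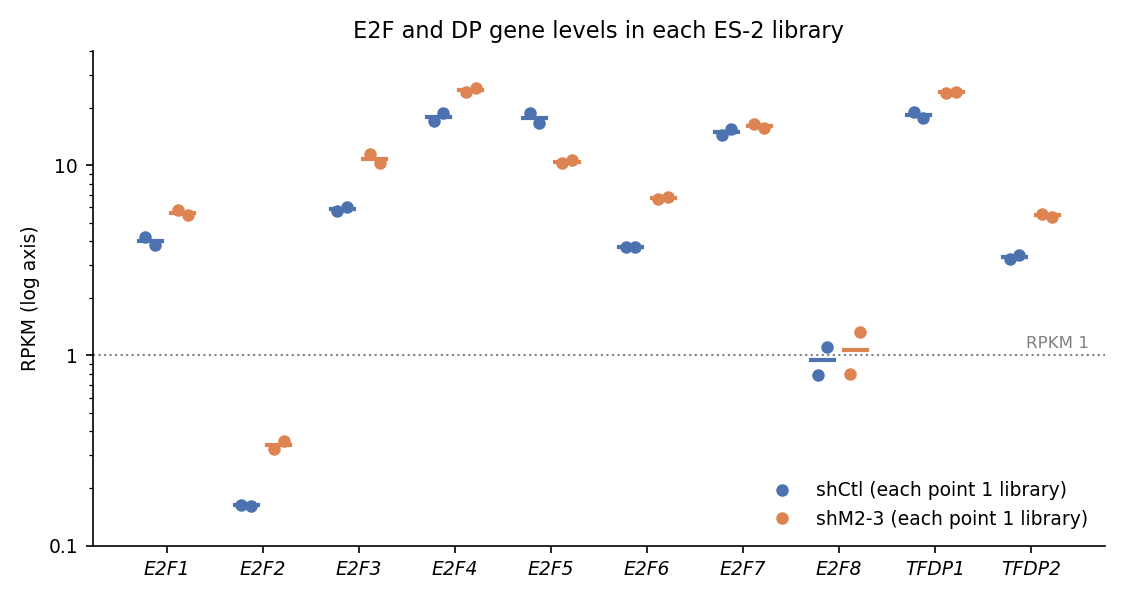
RPKM on a log axis for each gene in each library; points are libraries, short bars are group means (n = 2 per group) and the dotted line is the RPKM of 1 that at least 1 library had to exceed for a gene to be tested. The shM2-3 points lie above the shCtl points for 8 genes and below for E2F5, and they overlap for E2F8.

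Most of these genes rose after depletion of the fusion and MAML2, E2F5 alone fell, and E2F8 did not pass the test. Estimated counts were compared with edgeR's quasi-likelihood test, adjusted by the Benjamini-Hochberg method, over the 12157 genes whose RPKM exceeded 1 in any library. Of the 10 genes, 9 could be tested, 7 rose and 1 fell at an adjusted p of 0.05 or less. At that limit 72.7% of all tested genes passed, 36.3% as higher and 36.4% as lower, so passing was common in this comparison. None of the 9 reached a fold change of 2 with an adjusted p of 0.05 or less in edgeR's quasi-likelihood test, in either direction. That limit was passed by 18.2% of all tested genes, 9.24% as higher and 8.93% as lower. At an unadjusted p under 0.05 the count was again 7 higher and 1 lower in edgeR's quasi-likelihood test, beside 74.5% of all tested genes in either direction, and DESeq2 also found no member at a fold change of 2. The median log2 fold change of the 9 was 0.54, beside -0.004 for all tested genes. The RPKM of both shM2-3 libraries exceeded that of both shCtl libraries for 8 of the 10 genes, as it did for 38.9% of tested genes, and fell short of both for E2F5, as it did for 47.1% of tested genes. In bulk RNA, fewer cells in a cycle phase and less RNA per cell cannot be told apart, which applies to every result given here.

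**Figure D3:**
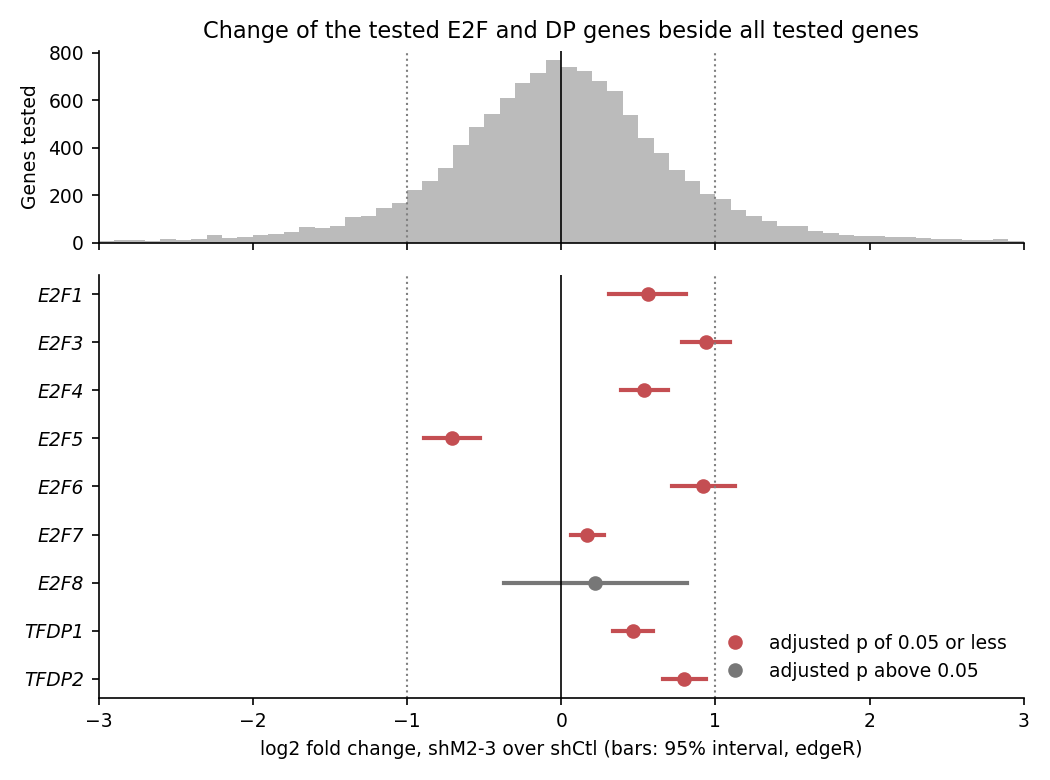
Top, histogram of log2 fold changes (shM2-3 over shCtl) of the genes tested, drawn between -3 and 3. Bottom, log2 fold change of the 9 tested E2F and DP genes with 95% intervals from edgeR; red marks an adjusted p of 0.05 or less and dotted lines a fold change of 2. E2F3 (0.94) and E2F6 (0.92) lie furthest to the right, E2F5 (-0.71) lies to the left, and the interval of E2F8 spans 0.

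Among the activators, E2F3 rose most. E2F3, located on chromosome 6 of hg38 from 20401879 to 20493714 on the plus strand, had an RPKM of 5.77 and 6.04 in shCtl and of 11.4 and 10.2 in shM2-3. The shM2-3 libraries lay well above the controls, with 1696 and 1377 estimated counts against 701 and 747. On the log2 scale it rose by 0.94 (standard error 0.0714, adjusted p = 4.97e-08, edgeR's quasi-likelihood test), a 1.92-fold increase with a 95% interval of 1.72 to 2.14. Without shM2-3 replicate 2 the log2 fold change was 1.01, past a fold change of 2. E2F3 is known to give a longer and a shorter protein from alternative starts, and the gene-level counts do not separate the 2 annotated starts shown above.

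E2F1 (chromosome 20, 33675477 to 33686385, minus strand), the activator also known for inducing cell death genes, rose less. Its RPKM was 4.17 and 3.81 in shCtl and 5.79 and 5.45 in shM2-3, without overlap. The log2 fold change was 0.56 (standard error 0.115, adjusted p = 0.000632, edgeR's quasi-likelihood test). The ratio of E2F3 to E2F1 RPKM was 1.38 and 1.59 in shCtl and 1.97 and 1.88 in shM2-3. With 2 libraries against 2, an exact two-sided permutation test of such a ratio cannot give a p below 0.333, which is the value of each ratio given here.

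E2F2 (chromosome 1, 23506438 to 23531233, minus strand), the remaining activator, was barely expressed. Each shCtl library had 20 estimated counts of it and each shM2-3 library 48, an RPKM of 0.164 and 0.162 against 0.322 and 0.356. With every library below an RPKM of 1, it was not among the genes tested. In a fit without that filter, over 19626 genes, its log2 fold change was 1.09 (standard error 0.414, adjusted p = 0.0183, edgeR's quasi-likelihood test). The gene took 0.249% of summed E2F RPKM in shCtl and 0.447% in shM2-3.

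The pocket-protein-bound repressors E2F4 and E2F5 moved in opposite directions. E2F4 (chromosome 16, 67192155 to 67198918, plus strand) had an RPKM of 17.0 and 18.8 in shCtl and of 24.3 and 25.4 in shM2-3. Its rise on the log2 scale was 0.54 (standard error 0.0696, adjusted p = 1.02e-05, edgeR's quasi-likelihood test). E2F5, on chromosome 8, had an RPKM of 18.9 and 16.7 in shCtl and of 10.3 and 10.6 in shM2-3. Both shM2-3 libraries lay far below the controls, and 58.5% of the control level remained. E2F5 fell by 0.71 on the log2 scale (standard error 0.0843, adjusted p = 4.74e-06, edgeR's quasi-likelihood test), and its value stayed between -0.80 and -0.61 in all 11 alternatives. Only 15.5% of tested genes had a log2 fold change at or below that of E2F5.

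The ratio of E2F4 to E2F5 RPKM was 0.899 and 1.12 in shCtl and 2.37 and 2.40 in shM2-3. The libraries carry no strand, and in the GENCODE v44 annotation 997 of the 5999 exon bases of E2F5 (16.6%) are shared with RBIS, a protein-coding gene on the opposite strand. RBIS had 598 and 643 estimated counts in shCtl and 454 and 516 in shM2-3, a log2 fold change of -0.49 (adjusted p = 0.00111, edgeR's quasi-likelihood test). How reads in the shared exons were divided between the 2 genes is not given in the sources used here, and its part in the E2F5 value was not tested.

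E2F6, the repressor that joins a Polycomb complex, rose nearly as much as E2F3. On chromosome 2 from 11444375 to 11466177 on the minus strand, it had an RPKM of 3.70 and 3.71 in shCtl and of 6.64 and 6.78 in shM2-3. The control libraries hardly differed, and the shM2-3 libraries were 1.81 times as high on average. The log2 fold change was 0.92 (standard error 0.0949, adjusted p = 1.10e-06, edgeR's quasi-likelihood test). E2F6 and E2F3 stood at similar places in the distribution of all tested genes, with 10.7% and 10.4% of genes above them.

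Of the atypical repressors, which bind DNA without a DP partner, E2F7 rose slightly and E2F8 did not pass the test. E2F7 (chromosome 12, 77021248 to 77065569, minus strand) had an RPKM of 14.5 and 15.4 in shCtl and of 16.4 and 15.8 in shM2-3. The groups did not overlap, but the gap between them was smaller than that between the control libraries. On the log2 scale it rose by 0.17 (standard error 0.0498, adjusted p = 0.0078, edgeR's quasi-likelihood test), the smallest of the 7 rises. The call was lost without shCtl replicate 1 (adjusted p = 0.0779, edgeR's quasi-likelihood test) and with limma on log2(RPKM + 1) (adjusted p = 0.143, limma).

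E2F8 (chromosome 11, 19224063 to 19241620, minus strand) gave 73 and 105 estimated counts in the controls and 91 and 136 after depletion. Its RPKM, 0.788 and 1.11 against 0.803 and 1.33, overlapped between the groups, and 1 library in each group exceeded the limit of 1. The log2 fold change was 0.22 (95% interval -0.37 to 0.82, adjusted p = 0.482, edgeR's quasi-likelihood test), an interval that holds both no change and a rise as large as that of TFDP2. Without shM2-3 replicate 2 it was -0.18, and without shM2-3 replicate 1 it was 0.55. A change of E2F8 was not detectable beyond the spread between these libraries.

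Both DP genes rose, TFDP2 more than TFDP1. TFDP1 (chromosome 13, 113584721 to 113641473, plus strand), which encodes the main partner of the E2F proteins, had an RPKM of 19.0 and 17.7 in shCtl and of 24.0 and 24.4 in shM2-3. On the log2 scale it rose by 0.47 (standard error 0.0601, adjusted p = 1.01e-05, edgeR's quasi-likelihood test). TFDP2 (chromosome 3, 141944428 to 142149544, minus strand) had an RPKM of 3.21 and 3.36 in shCtl and of 5.55 and 5.35 in shM2-3. Its rise on the log2 scale was 0.80 (standard error 0.0647, adjusted p = 9.89e-08, edgeR's quasi-likelihood test). TFDP1 remained the more abundant, holding 84.8% ± 1.03 of summed DP RPKM in shCtl and 81.6% ± 0.573 in shM2-3 (SD, n = 2 each). Its RPKM was 5.91 and 5.28 times that of TFDP2 in shCtl and 4.33 and 4.57 times in shM2-3.

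Both the sum and the makeup of E2F transcripts changed. The RPKM of the 8 E2F genes summed to 65.0 and 65.8 in shCtl and to 75.9 in each shM2-3 library. The activators E2F1 to E2F3 held 15.4% ± 0.237 of this sum in shCtl and 22.1% ± 1.39 in shM2-3 (SD, n = 2 each). E2F4 and E2F5 together held 54.6% ± 0.901 and 46.5% ± 1.37 (SD, n = 2 each). Within that class the share of E2F5 was 27.3% in shCtl and 13.7% in shM2-3, while that of E2F4 was 27.3% and 32.7%.

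The share of E2F6 was 5.69% and 5.64% in the shCtl libraries and 8.75% and 8.93% in the shM2-3 libraries, and that of E2F7 and E2F8 together was 24.3% ± 1.18 and 22.6% ± 0.111 (SD, n = 2 each). The last share thus differed by -1.76 points on RPKM, and by -4.64 points on estimated counts, which are not scaled by length. For each class the libraries of the groups did not overlap. The RPKM of E2F7 was 1.43 and 1.54 times the sum of the activators in shCtl and 0.936 and 0.983 times in shM2-3. Summed E2F RPKM was 2.93 and 3.12 times summed DP RPKM in shCtl and 2.57 and 2.55 times in shM2-3. The shares describe RNA, carry no test, and depend on the single transcript length used for each gene.

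**Figure D4:**
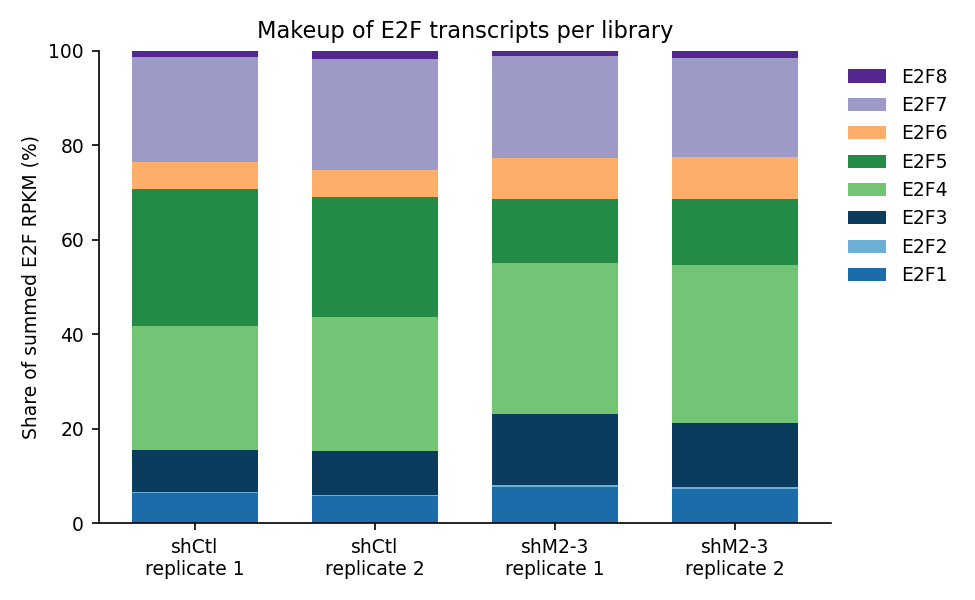
Share of the summed RPKM of E2F1 to E2F8 held by each gene, in percent, for each of the 4 libraries. The band of E2F5 narrows from 29.1% and 25.4% in shCtl to 13.5% and 14.0% in shM2-3, while the bands of E2F3, E2F4 and E2F6 widen.

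The pocket proteins, which hold E2F in check, did not move together. RB1, the retinoblastoma protein and partner of the activators, had an RPKM of 9.72 and 9.06 in shCtl and of 16.6 and 15.5 in shM2-3. Its rise on the log2 scale was 0.84 (standard error 0.0610, adjusted p = 3.09e-08, edgeR's quasi-likelihood test). RBL2 (p130), the pocket protein of resting cells, fell by 0.30 (standard error 0.0459, adjusted p = 4.78e-05, edgeR's quasi-likelihood test), from an RPKM of 34.4 and 32.4 to 26.3 and 25.5. RBL1 (p107) had a log2 fold change of 0.24 and did not pass (adjusted p = 0.0656, edgeR's quasi-likelihood test), with 739 and 520 estimated counts in shM2-3 against 460 and 500. Without shM2-3 replicate 2 or shCtl replicate 2 it was 0.41 or 0.29 and passed, and without shM2-3 replicate 1 it was 0.06. The ratio of RB1 to RBL2 RPKM was 0.283 and 0.279 in shCtl and 0.632 and 0.608 in shM2-3.

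The MuvB core joins E2F4 or E2F5 and RBL1 or RBL2 as the DREAM repressor, and later MYBL2 and FOXM1 as an activator of mitotic genes. Of 7 genes of this list, 3 rose and 1 fell, and 57.1% passed the adjusted p. Of all tested genes 72.7% passed, 36.3% as higher and 36.4% as lower. RBBP4, a histone-binding subunit, rose with a log2 fold change of 0.58, LIN52 of the core with 0.49, and MYBL2 (B-MYB) with 0.40. FOXM1 fell by 0.47, from an RPKM of 22.6 and 21.7 to 15.0 and 15.5. The subunits LIN9 (0.01), LIN37 (0.16) and LIN54 (-0.26) did not pass, the last with an adjusted p of 0.0555 (edgeR's quasi-likelihood test). Without shM2-3 replicate 2, LIN54 passed (adjusted p = 0.0242) and LIN52 did not (adjusted p = 0.0576, edgeR's quasi-likelihood test). LIN54 also passed with either other filter and with total counts, and LIN52 did not pass in the limma fits (adjusted p = 0.0604 and 0.0563, limma). Reads of RBBP4, FOXM1 and LIN37 may be shared with genes whose exons overlap theirs.

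Genes that E2F proteins activate at the G1/S transition fell more often than they rose. Of 42 such genes, chosen from general knowledge, 20 fell, 8 rose and 14 did not pass the adjusted p. Their median log2 fold change was -0.23, beside -0.004 for all tested genes. Of the list 66.7% passed the adjusted p, against 72.7% of all tested genes, 36.3% as higher and 36.4% as lower. At a fold change of 2 or more, 5 were lower (ORC1, CDT1, CCNA2, TYMS and RRM2) and 1 was higher (CCNE2). Of all tested genes, 8.93% were lower and 9.24% higher at that limit.

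ORC1, the subunit of the origin recognition complex, fell by 1.30 from an RPKM of 5.75 and 5.70 to 2.34 and 2.10. CDT1, which loads the replicative helicase, had a log2 fold change of -1.05, and CCNA2 (cyclin A2) fell by 1.04. TYMS, for thymidylate synthesis, fell by 1.04, and RRM2, a subunit of ribonucleotide reductase, fell by 1.02. The adjusted p of these 5 ranged from 2.67e-10 for TYMS to 3.50e-07 for ORC1 (edgeR's quasi-likelihood test).

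In contrast, CCNE2 (cyclin E2) had 9 and 18 estimated counts in shCtl and 106 and 98 in shM2-3, a log2 fold change of 2.77 (standard error 0.374, adjusted p = 1.57e-05, edgeR's quasi-likelihood test). CCNE2 passed the RPKM limit of 1 only through the shM2-3 libraries (1.36 and 1.39, against 0.148 and 0.282 in shCtl). It was thus tested only because it was high in that group. In the fit without that filter, the log2 fold change of CCNE2 was 2.74. Of its exon bases, 37.0% are shared with INTS8 on the opposite strand, with 1761 and 1836 counts in the controls and 1541 and 1332 after depletion. With limma on log2(RPKM + 1), which shrinks low genes, the CCNE2 value was 0.97. MCM10, a replication initiation factor, rose with a log2 fold change of 0.99, and FEN1, the flap nuclease, with 0.60. CCNE1 (cyclin E1) was at 0.09 and did not pass.

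Upstream of the pocket proteins, cell cycle inhibitors and cyclin D kinases both changed. Of 13 G1 regulators, 11 could be tested, 6 rose and 3 fell. Of those tested, 81.8% passed the adjusted p, beside 72.7% of all tested genes, 36.3% as higher and 36.4% as lower. CDKN2B (p15), an inhibitor of CDK4 and CDK6, had an RPKM of 7.27 and 8.09 in shCtl and of 43.0 and 42.8 in shM2-3, a log2 fold change of 2.55 (standard error 0.0552, adjusted p = 1.15e-13, edgeR's quasi-likelihood test). CDKN1A (p21) rose from 2.35 and 2.19 to 9.08 and 9.66, a log2 fold change of 2.11. CDK6 rose with a log2 fold change of 1.03 and CCND1 (cyclin D1) with 0.84, while CDK4 fell by 0.20. Of the exon bases of CDK4, 44.2% are shared with TSPAN31 on the opposite strand (log2 fold change -0.17), and the part of this overlap was not tested. The inhibitors CDKN2C (p18) and CDKN2D (p19) fell by 0.68 and 0.58. CDKN2D was not past the adjusted p without shCtl replicate 1 or without shM2-3 replicate 2, at 0.074 and 0.0991 (edgeR's quasi-likelihood test). CCND2 and CDKN1C had at most 4 counts in any library.

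Partners of E2F6 in its Polycomb complex (PRC1.6) moved in both directions. Of 12, 5 rose, 3 fell and 4 did not pass, with a median of 0.05. Of these 12, 66.7% passed the adjusted p, beside 72.7% of all tested genes, 36.3% as higher and 36.4% as lower. L3MBTL2, a chromatin-binding subunit, rose from 173 and 175 estimated counts to 647 and 580, a log2 fold change of 1.67 (standard error 0.107, adjusted p = 8.53e-09, edgeR's quasi-likelihood test). HDAC1 rose with 1.22 and MAX, the DNA-binding partner of MGA, with 0.93, and the exons of MAX overlap those of FNTB (log2 fold change 1.69) and, for 9.96% of their bases, those of CHURC1-FNTB (log2 fold change -2.20). YAF2 fell by 0.43 and WDR5 fell by 0.18, and PCGF6 (-0.15), the Polycomb ring finger subunit for which the complex is named, did not pass (adjusted p = 0.255, edgeR's quasi-likelihood test). With limma on log2(RPKM + 1) PCGF6 passed as lower (adjusted p = 0.0445, limma). The call of WDR5 was lost with DESeq2 (adjusted p = 0.124, DESeq2), without shCtl replicate 2 and without shM2-3 replicate 1, and that of YAF2 without shCtl replicate 1 (adjusted p = 0.0553, edgeR's quasi-likelihood test). Of 7 germline genes that E2F6 is known to repress, 6 were in the tables and STAG3 alone was expressed enough to test. STAG3, a meiotic cohesin subunit, fell by 1.36 from 252 and 223 estimated counts to 116 and 89. STAG3 passed the RPKM limit of 1 only through the shCtl libraries (2.44 and 2.13, against 0.924 and 0.783 in shM2-3). It was thus tested only because it was high in that group. In the fit without that filter, the log2 fold change of STAG3 was -1.39. The other 5 germline genes had at most 11 counts in any library.

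Of 9 cofactors of E2F, 7 rose, 1 fell and 1 did not pass, with a median of 0.39. Of this list 88.9% passed the adjusted p, beside 72.7% of all tested genes, 36.3% as higher and 36.4% as lower. The acetyltransferase EP300 rose with a log2 fold change of 0.76, the corepressor scaffold SIN3A with 0.76, HCFC1 with 0.63 and KAT2A with 0.26, while the histone methyltransferase SUV39H1 fell by 0.36 and SIN3B was at 0.03. The calls of SUV39H1 and KAT2A were lost without shM2-3 replicate 1 (adjusted p = 0.189 and 0.0682, edgeR's quasi-likelihood test). The SUV39H1 call was also lost without shCtl replicate 2 and with DESeq2 (adjusted p = 0.112, DESeq2). Of 5 genes for ubiquitin ligase subunits that act on cell cycle proteins, CDC20 fell by 1.43 from an RPKM of 90.4 and 92.3 to 32.7 and 32.0, and CCNF fell by 0.39. BTRC and FZR1 rose with 0.35 and 0.23, and SKP2 (-0.21) did not pass. SKP2 passed as lower in 6 of 11 alternatives, among them both limma fits (adjusted p = 0.0283, limma), and FZR1 lost its call in both (adjusted p = 0.0802 and 0.0795, limma). Without shCtl replicate 1, SKP2 passed (adjusted p = 0.0381) and FZR1 did not (adjusted p = 0.051), nor did FZR1 without shM2-3 replicate 1 (adjusted p = 0.072, edgeR's quasi-likelihood test).

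Among cell death genes that E2F1 can activate, some rose in the same comparison. Of 8, 7 could be tested, 4 rose and 1 fell, with a median of 0.34. Of those tested, 71.4% passed the adjusted p, beside 72.7% of all tested genes, 36.3% as higher and 36.4% as lower. BCL2L11 (BIM), a proapoptotic BCL2 family member, had an RPKM of 1.24 and 1.31 in shCtl and of 3.33 and 3.56 in shM2-3, a log2 fold change of 1.5 (standard error 0.111, adjusted p = 3.78e-08, edgeR's quasi-likelihood test). PMAIP1 (NOXA) rose with 1.14 and CASP8 with 0.82. APAF1 (0.11) and BBC3 (PUMA, -0.32) did not pass, although BBC3 passed as lower in both limma fits (adjusted p = 0.0372 and 0.0368, limma), and TP73 had at most 2 counts.

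**Figure D5:**
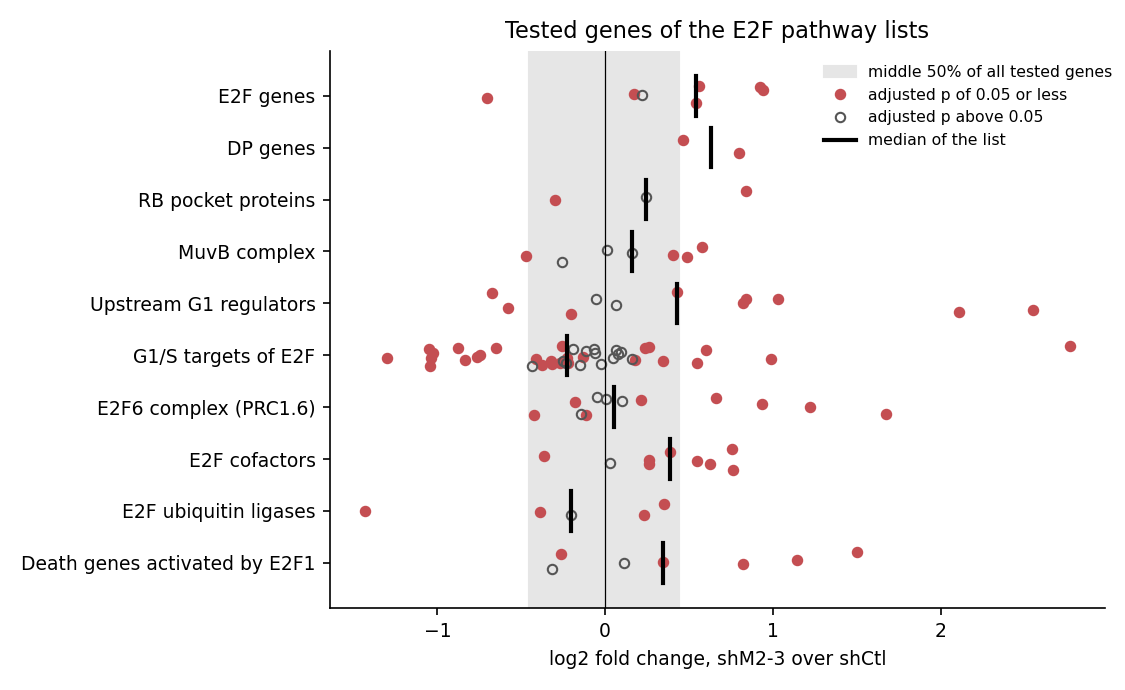
log2 fold change (shM2-3 over shCtl) of each tested gene of the E2F, DP and pathway lists; filled points have an adjusted p of 0.05 or less, open points do not, black bars are list medians and the grey band holds the middle 50% of all tested genes. The median of the E2F genes lies at 0.54 and that of the G1/S targets at -0.23.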

How the data were processed

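RNA-seq of ES-2 cells (shCtl, n = 2; shM2-3, n = 2) was analysed. The authors aligned paired reads of 150 bases to hg38 with HISAT2 2.0.4, dropped ambiguous reads and mapping qualities under 10, and estimated reads per RefSeq gene in Partek 7.18. The authors deposited estimated counts without normalization, of which 42.4% to 48.6% per library were whole. Deposited RPKM is the count over a length for the gene and a factor for the library.

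After rounding, counts of the 12157 genes whose RPKM exceeded 1 in any library were compared by edgeR 4.0.16 under R 4.3.3 (TMM, glmQLFTest, no block). The design assumed raw counts. Rounding was added once the values were seen. A call needed an adjusted p (Benjamini-Hochberg) of at most 0.05, with a fold change of 2 or more where stated, as in the study's methods. Standard errors are the log2 fold change divided by the square root of F. Alternatives used DESeq2 1.42.0 and limma 3.58.1, other filters and scalings, blocking by replicate, and leaving out each library. On simulated counts of 12157 genes, 200 of 200 changed genes were recovered and 0 others called, at a fold change limit of 2. Every planted change exceeded that limit and the change of every tested member, and all genes shared a single dispersion. The simulation therefore checks that the code runs as intended and does not cover changes as small as those of the members.

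The members and lists were chosen with earlier results of these data known. Genes named were the 10 members, MAML2, all pocket protein and MuvB genes, and, in each other list, the 3 genes at either end of the log2 fold changes. TYMS, RRM2, CCNE1, CCND1, RBIS, INTS8, FNTB, CHURC1-FNTB, TSPAN31 and genes near 0 counts were named after their values were seen. A few genes of these lists are left unreported here. Replicate libraries were distinct, with differences 3.46 (shCtl) and 3.98 (shM2-3) times what sampling gives (chi-square over degrees of freedom). With 2 libraries per group, each SD is rough. Gene positions and exon overlaps come from GENCODE v44, which is on hg38. Exon bases are also shared with genes on the opposite strand in STAG3 (20.8%), BCL2L11 (10.8%) and other named genes. The part of these overlaps was not tested.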

Additional observations from a re-analysis of the deposited data

How the results depend on the processing

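E2F1, E2F3, E2F4, E2F5, E2F6, TFDP1 and TFDP2 kept their direction and passed the adjusted p in all 11 alternatives, while E2F7 did so in 8. E2F8 ranged from -0.183 to 0.551 when 1 library was left out. With a fold change limit of 1.5 in place of 2, 3 members were higher (E2F3, E2F6 and TFDP2) and 1 was lower (E2F5), beside 2296 higher and 2302 lower of all tested genes, 19 and 13 in the pathway lists, and 3 and 10 among the G1/S targets. With either other filter (edgeR's filterByExpr or none) 1 member, E2F2, passed a fold change of 2. Leaving out 1 library gave 0 to 1 members and 1 to 2 G1/S targets higher at that limit, with E2F3 added without shM2-3 replicate 2 and MCM10 added without either shM2-3 replicate 2 or shCtl replicate 2. On log2(RPKM + 1) with limma, which shrinks low genes, 596 of all tested genes, 5 in the pathway lists and 0 of the G1/S targets were higher at that limit. Counted without transcript length, the shares of summed E2F counts moved by 8.14 points for the activators, -6.36 for E2F4 with E2F5, 2.86 for E2F6, -4.64 for E2F7 with E2F8 and -5.60 for TFDP1 within the DP genes, beside 6.72, -8.14, 3.18, -1.76 and -3.18 points on RPKM.

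LIN9, not past the test in any fit, changed sign with filterByExpr (-0.007), no filter (-0.02), total counts (-0.025) and limma on log2(RPKM + 0.1) (-0.044) and log2(RPKM + 1) (-0.037), and ranged from -0.155 to 0.198 with 1 library left out. SIN3B changed sign in 4 of these fits (no filter -0.003, total counts -0.008, limma -0.039 and -0.036), and LIN37 ranged from -0.047 to 0.354 with 1 library left out. The cause of these moves was not tested. The replicate numbers did not pair the samples (correlation of deviations -0.0287 over 2 pairs), and with the replicate block 7 members were higher and 1 lower, as without it. The shift of the median of all genes was under 0.1 on the log2 scale under each scaling. E2F2 and E2F8 had at most 48 and 136 counts in a library, and the part of depth in their values was not tested.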
